A study of Mus musculus with 8 samples.

Results

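The H3K9me3 ChIP-seq profiles of untreated *Setdb1* conditional ES cells (*T* = 0) were compared between 3 antibody preparations, which are 3 of the 8 libraries of the series. The members were chosen by their labels alone: the *T* = 0 libraries made with the Upstate-type antibody and with lots 58206 and 638466 of an Abcam antibody. The Upstate-type antibody was a gift from T. Jenuwein that the labels liken to Upstate/Millipore 07-442 (lot 4861), and the Abcam lots are 2 preparations of antibody 8898. The comparison addresses how far the map of one histone mark in one cell population depends on the antibody used to draw it. Among the 3 maps, the Upstate-type antibody had the largest share of tags, 36.2%, in windows at 3 times its median or more. Many of these windows joined into broad runs. In lot 58206 such windows were few and mostly isolated and held 3.98% of the tags. The map of lot 638466 was the flattest, with 0.610%.

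Trimethylation of lysine 9 of histone H3 is a mark of silent chromatin, laid down in ES cells by several methyltransferases. Setdb1 is the one that acts with KRAB zinc finger proteins and Trim28 at endogenous retroviruses and at imprinted loci, whereas the Suv39h enzymes act mainly at pericentric satellite repeats. A ChIP-seq library counts the DNA fragments that an antibody retains, so its profile holds the mark, whatever else the antibody binds and unbound background together.

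All libraries came from JM8 mouse ES cells of strain C57BL/6N, grown without feeders. One *Setdb1* allele is conditional and the other carries the *tm2* insertion, so the *T* = 0 cells already lacked 1 functional copy, and a CreERT2 recombinase expressed from *Rosa26* is activated by 48 h of 0.8 μM 4′OHT. The labels name the untreated genotype *tm1a/tm2* and the treated one *tm1c/tm2*, while the study's text names them *tm1c/tm2* and *tm1d/tm2*. Between 3 and 6 μg of antibody went into each ChIP. The later libraries (all 3 later times of the Upstate-type antibody, and *T* = 6d of both lots) were not compared at *T* = 0; they served to read windows chosen at *T* = 0, to order windows, to centre peaks and to find stretches without tags. No library is replicated at a given antibody and time, so every test below compares libraries and its *P* covers counting error only. The antibody, its amount and the library preparation cannot be told apart. The files hold no transcript levels, so the ES cell label was not checked against markers, and no input library was analysed here.

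The 3 libraries held 6887819, 8503927 and 12194174 tags in the order Upstate-type, lot 58206 and lot 638466, of which 97.5% to 97.7% lay on chromosomes 1 to 19. No tag midpoint occurred more than once in a library, so a 5-kb window can hold at most 5000 tags. Of 494473 windows of 5 kb (mm9), 473276 held a tag of at least 1 of the 3 libraries. The mean window held 2.06 TPM (tags per 1000000 deposited tags of the library) in each library, but the median window held 1.45 TPM (10 tags) with the Upstate-type antibody, 2.00 TPM (17 tags) in lot 58206 and 2.05 TPM (25 tags) in lot 638466. The typical window was thus lower with the Upstate-type antibody, and levels are given below as TPM or as multiples of the median window of the same library, a scale that removes this offset.

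Tags were far more concentrated with the Upstate-type antibody than with either lot. Windows with at least 3 times the median of their own library are called enriched. They numbered 41041 (8.67% of windows) with the Upstate-type antibody, 4850 (1.02%) in lot 58206 and 555 (0.117%) in lot 638466. The 95% exact binomial interval of the share of tags that they held was 36.1% to 36.2%, 3.97% to 3.99% and 0.606% to 0.615%, respectively. The Upstate-type antibody had the most windows at higher limits too, with 20582, 497 and 89 at 5 times the median and 4062, 43 and 33 at 10 times, where the lots came close to each other. The variance between windows beyond counting error, divided by the squared mean, does not depend on depth and was 1.43, 0.299 and 0.232. With the 2 deeper libraries thinned to the tag number of the Upstate-type library, enriched windows held 4.82% and 0.714% of the tags of lots 58206 and 638466. The richest 1% of windows held 8.72%, 3.91% and 2.66% of the tags.

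**Figure D1:**
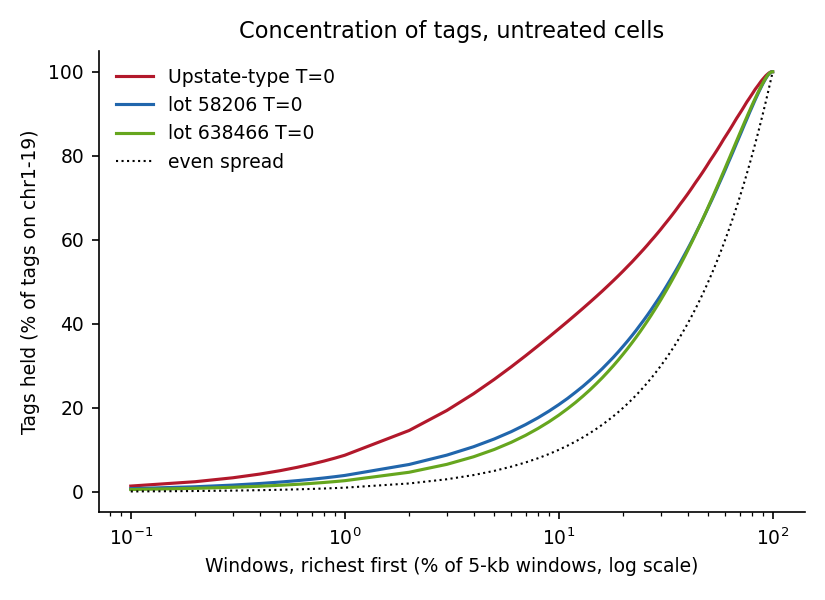
Cumulative share of the tags on chromosomes 1 to 19 (y axis, %) held by the richest 5-kb windows (x axis, % of windows, log scale) in the 3 *T* = 0 libraries, with the dotted line for an even spread. The richest 10% of windows held 38.8% of the tags with the Upstate-type antibody, 20.8% in lot 58206 and 18.2% in lot 638466.

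Across the 473276 windows, the lots resembled each other more than either resembled the Upstate-type antibody. Spearman's rho was 0.657 between the lots, 0.447 between the Upstate-type antibody and lot 58206, and 0.481 between the Upstate-type antibody and lot 638466. Once counting error was taken out, Pearson's r was 0.858, 0.370 and 0.410, respectively. For comparison, the Upstate-type libraries at *T* = 0 and *T* = 2d gave rho = 0.627 and r = 0.974 without counting error. The Upstate-type library at *T* = 6d gave 0.487 and 0.901 against *T* = 0, lot 58206 gave 0.477 and 0.814 and lot 638466 gave 0.596 and 0.837. By r the Upstate-type *T* = 0 library was thus closer to its own later libraries than to either lot, whereas by rho its *T* = 6d library was about as far from it as lot 638466 was. These windows share mappability and base composition, and the 3 pairs share libraries, so the coefficients are descriptions. Agreement rose with window size, to rho of 0.974, 0.881 and 0.842 in the same order over 2425 windows of 1000 kb.

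The richest windows were mostly different ones, though each pair shared more than the 1% that unrelated sets would. Of the 4732 windows that make up the top 1% of each library, 23.1% were shared between the lots, 7.86% between the Upstate-type antibody and lot 58206, and 8.54% between the Upstate-type antibody and lot 638466. The Upstate-type antibody shared 74.8% of its top windows with its own *T* = 2d library and lot 58206 shared 62.3% with its own *T* = 6d library, but lot 638466 shared 11.4% with its own. Enriched windows nested unequally. The Upstate-type antibody and lot 638466 had 519 in common, which made up 93.5% of the windows of lot 638466 but 1.26% of the Upstate-type windows. It had 1960 in common with lot 58206, or 40.4% of the windows of that lot and 4.78% of its own. The lots had 442 in common, 9.11% of the lot 58206 windows and 79.6% of the lot 638466 windows.

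Windows were next ordered by a library that was not compared, the Upstate-type library at *T* = 2d. From windows below 0.5 times the median of that library to those at 20 times and over, the mean level of the Upstate-type *T* = 0 library went from 0.595 to 16.6 times its median. The lots followed at the low end, with 0.673 and 0.669 times their medians, but not above. In the 4834 windows at 12 to 20 times the median, the Upstate-type level was 10.5 times its median, while lot 58206 stood at 1.40 and lot 638466 at 1.36, close to the 1.33 and 1.27 that they had in windows at 2 to 3 times. Only in the 788 windows at 20 times and over did both lots rise, to means of 2.82 and 2.49, while their medians over these windows were 1.29 and 1.36. Both lots were below 1.5 times their medians in 63.3% of the windows at 12 to 20 times and in 406 of the 788 (51.5%) at 20 times and over. The share was 92.0% below 0.5 times, 79.9% at 1 to 1.5 times and 61.6% at 2 to 3 times. Ordered instead by lot 58206 at *T* = 6d, the 1647 windows at 6 to 8 times the median had mean levels of 2.65 (Upstate-type), 3.52 (lot 58206) and 1.535 (lot 638466). There lot 58206 stood highest. Ordered by lot 638466 at *T* = 6d, windows at 4 to 6 times the median, of which there were 24, had mean levels of 7.03, 6.31 and 6.04 times the medians, so all 3 antibodies were high there. Each ordering library shares its antibody with 1 of the 3 compared, so no ordering is neutral.

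**Figure D2:**
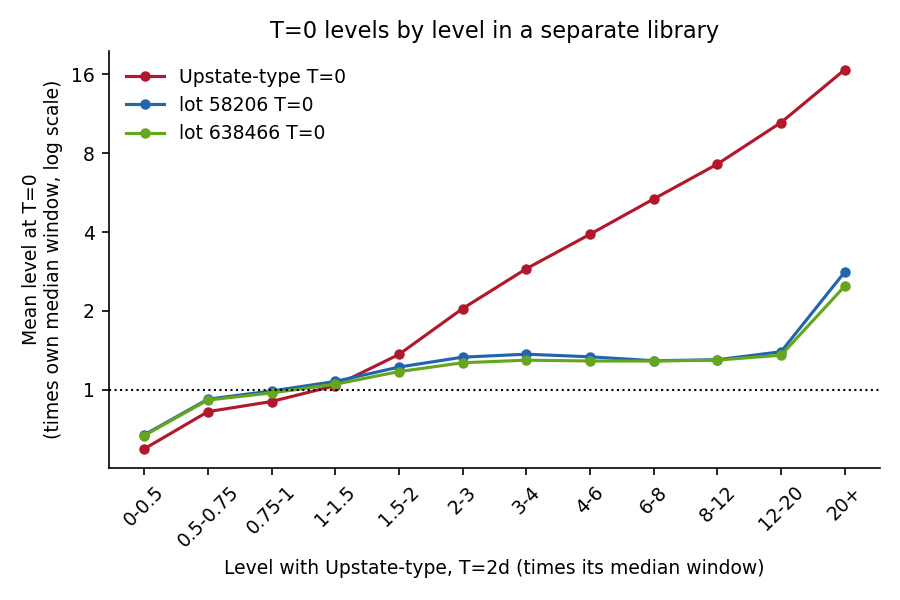
Mean level of each *T* = 0 library (y axis, times its own median window, log scale) in 5-kb windows grouped by their level in the Upstate-type *T* = 2d library (x axis, times its median). The Upstate-type points climb to 16.6 while those of both lots stay between 1.17 and 1.40 from the group at 1.5 to 2 up to the group at 12 to 20.

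By runs of enriched windows, the signal of the Upstate-type antibody was also wider. Its enriched windows joined into 13086 runs of neighbouring windows with a mean width of 15.7 kb. Of the enriched windows, 57.0% (95% exact binomial interval 56.5% to 57.5%) lay in the 2733 runs of 25 kb or more. That interval takes windows as independent, though windows of a run count together, so it is too narrow. With lot 58206, 4072 of 4400 runs were single windows and 1.79% of enriched windows lay in runs of 25 kb or more, in 10 runs. With lot 638466, 353 of 422 runs were single and the share was 11.4%, in 7 runs. The share of lot 638466 depended on the limit, with 4.14% at 2 times the median and 37.1% at 5 times, where the Upstate-type antibody had 46.1% and lot 58206 had 7.45%. The widest Upstate-type run spanned 245 kb at chr8:26715001-26960000, where the mean level was 9.65 times the median with the Upstate-type antibody, 2.54 in lot 58206 and 2.43 in lot 638466. The widest runs of the lots lay at the same place, chr1:90105001-90205000 (100 kb) for lot 58206 and chr1:90105001-90210000 (105 kb) for lot 638466. In the longer of these intervals the 3 levels were 9.04, 5.87 and 6.27 times the medians, so it was enriched with every antibody. At *T* = 6d they were 9.61, 6.84 and 5.80. The interval supplied 21 of the 63 windows of lot 638466 in runs of 25 kb or more. Whether its level reflects the mark was not tested, as no input was analysed.

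The covariance of tag numbers between bins at growing distance, divided by the squared mean, needs no limit on enrichment. Its size reflects the strength of the variation between bins, and its relative fall with distance reflects the width of whatever varies. Distances up to 5 kb used 200-bp bins and longer ones 5-kb bins, with the highest bins capped. Bins without a tag were kept, so stretches without tags in every library can add to the values at long distances. The part of these stretches was not tested. The covariance was 1.82 at 0.2 kb with the Upstate-type antibody and remained at 1.18 at 5 kb, 0.710 at 20 kb and 0.298 at 100 kb. With lot 58206 it fell from 0.522 at 0.2 kb to 0.160 at 5 kb, and then only to 0.130 at 20 kb. With lot 638466 it was 0.330, 0.172 and 0.158 at these distances. The excess of lot 58206 over lot 638466 was therefore limited to distances below about 3 kb, where the values were 0.187 and 0.189. At 100 kb lots 58206 and 638466 stood at 0.102 and 0.130. Relative to the value at 0.2 kb, the Upstate-type antibody kept the most at 5 kb, and lot 638466 the most at 20 and 100 kb. By this measure the order thus depended on the distance, and no order in width is read from it.

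**Figure D3:**
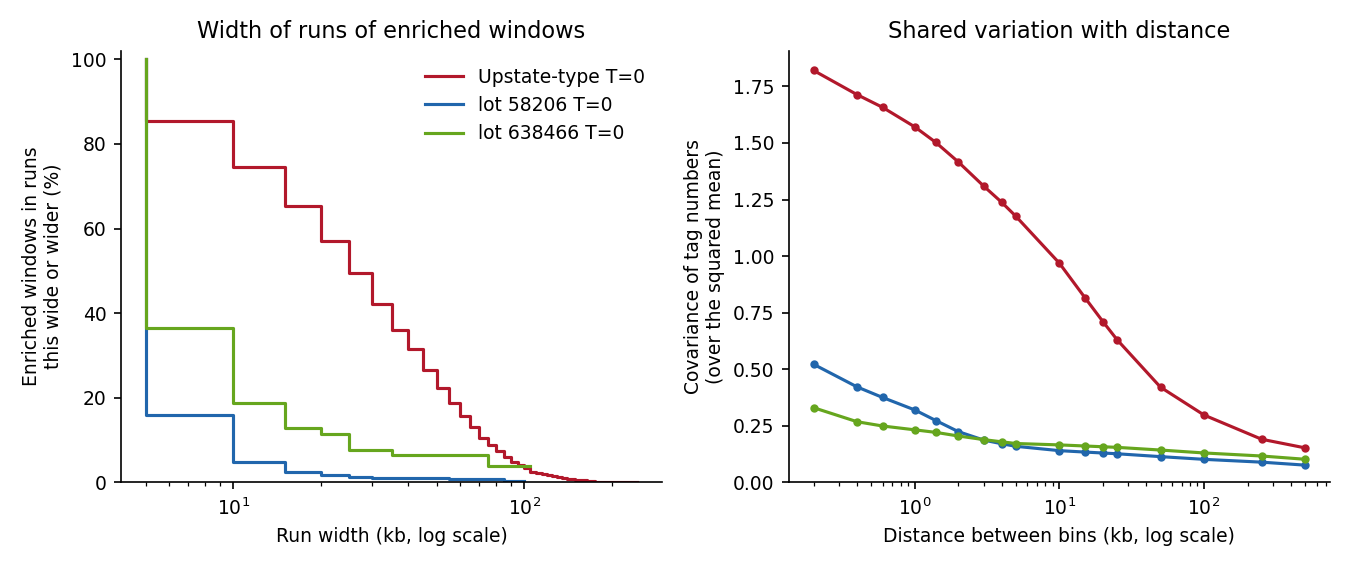
Left, share of enriched windows (y axis, %) in runs at least as wide as given on the x axis (kb, log scale). Right, covariance of tag numbers over the squared mean (y axis) by distance between bins (x axis, kb, log scale). At 25 kb the left curves stand at 57.0%, 1.79% and 11.4% for the Upstate-type antibody, lot 58206 and lot 638466, and the right curve of the Upstate-type antibody lies above both lots at every distance drawn.

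Individual windows were compared with Fisher's exact test (two-sided), which set the tags in a window against the rest of the library, and were called where *P* was below 0.01 and the levels differed by over 1.5-fold. The Upstate-type antibody was higher than lot 58206 in 34096 windows (7.2%) and lower in 26628 (5.63%). It was higher than lot 638466 in 35677 (7.54%) and lower in 32753 (6.92%). Lot 58206 was higher than lot 638466 in 9239 (1.95%) and lower in 3950 (0.835%). Against its own *T* = 2d library, the Upstate-type *T* = 0 library was higher in 3925 (0.829%) and lower in 3916 (0.827%).

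The split between higher and lower windows depended on the scale. When libraries were scaled to their tags in background windows, those that all 3 libraries left below 1.5 times their medians, the log2 ratio of the Upstate-type antibody shifted by 0.54 against lot 58206 and by 0.56 against lot 638466. The Upstate-type antibody was then higher in 52046 and lower in 6365 windows against lot 58206, and its share of the calls went from 56.1% to 89.1%. Against lot 638466 it was higher in 56574 and lower in 4618, with a share that went from 52.1% to 92.5%. Fewer windows were thus lower with the Upstate-type antibody on this scale. Between the lots the split was 70.0% and 72.2%. The split also turned with the window size. In 10-kb windows the Upstate-type antibody was higher than lots 58206 and 638466 in 20674 and 21967 windows and lower in 26429 and 36196, whereas in 2-kb windows it was higher in 59673 and 62484 and lower in 25747 and 24637.

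A limma fit that took the lots as 2 preparations of 1 antibody, with the lone Upstate-type library assumed to vary as they do, called 32979 windows higher (7.34% of 449229) and 59014 lower (13.1%) with the Upstate-type antibody at an adjusted *P* below 0.05 and over 1.5-fold. Under the background scaling these became 56183 and 16133. On simulated data with few changed windows this fit made more calls in unchanged windows than its adjusted *P* allows, and its split turned with the scale, so no direction is read from its counts.

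The 3 regions with the largest ratio of the Upstate-type antibody to lot 638466 were chosen for that ratio and are described without a test. At chr11:97020001-97050000 there were 1109 tags (161 TPM) with the Upstate-type antibody, 157 (18.5 TPM) in lot 58206 and 189 (15.5 TPM) in lot 638466. At chr2:155970001-156005000 the tags were 1043, 162 and 163 in the same order, which put the Upstate-type antibody at 14.9 times its median and the lots at 1.36 and 0.931 times theirs. At chr5:130295001-130305000 they were 259, 29 and 35. In all 3 regions both lots lay within the range of background windows or near it, and the Upstate-type level was also high in its later libraries, with 950 tags at chr11:97020001-97050000 and 961 at chr2:155970001-156005000 at *T* = 6d. The largest ratios to lot 58206 were at chr13:58490001-58500000 (288, 26 and 44 tags), chr18:35095001-35110000 (522, 53 and 77) and chr2:172830001-172840000 (263, 29 and 94). In the last of these, lot 638466 stood at 1.88 times its median, above lot 58206 at 0.853.

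In the regions with the largest reverse ratios, chosen in the same way and described without a test, the Upstate-type antibody was below its own median at *T* = 0. At chr5:143575001-143585000 the Upstate-type antibody had 12 tags (0.6 times its median), lot 58206 had 174 (5.12 times) and lot 638466 had 94 (1.88 times). At chr3:89120001-89130000 the tags were 7, 115 and 94, and at chr10:80595001-80605000 they were 9, 127 and 53. The lot 58206 signal in these 3 regions was higher at *T* = 6d, with 491, 169 and 166 tags. The largest ratios of lot 638466 to the Upstate-type antibody, at chr11:98960001-98970000 (4, 46 and 93 tags), chr7:149620001-149630000 (8, 35 and 91) and chr8:107895001-107905000 (10, 83 and 124), rested on Upstate-type levels of 0.2 to 0.5 times the median, while lot 638466 stood at 1.82 to 2.48 times. At *T* = 2d the Upstate-type level was 0.889, 0.778 and 0.778 times its median in the first 3 regions and 1.11, 0.611 and 0.944 in the last 3. At *T* = 6d it was 1.1, 0.85 and 0.85, and 0.55, 0.35 and 0.6. How much of the low level at *T* = 0 follows from the choice of regions was not tested.

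Between the lots, the largest ratios favoured lot 58206. At chr17:71195001-71205000 lot 58206 had 258 tags (7.59 times its median) and lot 638466 had 90 (1.80 times), while the Upstate-type antibody had 94 (4.7 times). At chr11:68850001-68860000 the tags were 21, 189 and 66 in the order Upstate-type, lot 58206 and lot 638466, and at chr14:106290001-106300000 they were 93, 193 and 67. The opposite ratios, at chr7:53380001-53395000, chr6:100170001-100180000 and chr12:117680001-117690000, came from windows in which lot 58206 lay at 0.392, 0.382 and 0.382 times its median and lot 638466 at 1.36 to 1.39 times. Lot 638466 thus had no region among these 3 in which it was enriched over its own background.

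The windows with the most tags were shared. At chr17:39980001-39985000 the 3 libraries held 865, 2138 and 2637 tags, which is 126, 251 and 216 TPM, and at chr11:3090001-3095000 they held 812, 1200 and 1518. Both windows were the first and second in every library. The third was chr13:120280001-120285000 with the Upstate-type antibody (744, 622 and 838 tags), chr2:98500001-98505000 with lot 58206 (693, 769 and 801) and chr11:3060001-3065000 with lot 638466 (317, 593 and 927). All 5 windows stood at 31.7 times the median or more in all 3 libraries. As each position counts once, no more than 5000 tags could have been counted in any of them.

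Of the 41041 windows enriched with the Upstate-type antibody, 24601 had both lots below 1.5 times their medians. Such low levels of the lots were common. In the Upstate-type *T* = 2d ordering above, they held for 79.9% of the 139155 windows at 1 to 1.5 times the median. The 24601 windows had median levels of 5.1 times the median with the Upstate-type antibody, 1.06 in lot 58206 and 1.12 in lot 638466. The choice of windows fixes these values. The later libraries did not take part in this choice. In them the Upstate-type antibody had median levels of 6.56, 5.3 and 5.4 after 2, 4 and 6 days, and lots 58206 and 638466 had 0.875 and 1.04 after 6 days. At *T* = 2d, 93.9% of these windows were again enriched with the Upstate-type antibody, compared with 9.71% of all windows. At *T* = 6d, 83.1% were called higher with the Upstate-type antibody than with either lot, against 7.45% of all windows. Among all 41041 windows enriched with the Upstate-type antibody, these shares were 89.5% and 69.2%. The Upstate-type signal thus stayed high in later libraries of the same antibody, and the lots stayed near background.

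These Upstate-type windows formed 11044 runs, of which 5882 were single windows. The largest by TPM were chr11:23220001-23395000 (175 kb, with 2059, 597 and 824 tags in the order Upstate-type, lot 58206 and lot 638466), chr1:84725001-84830000 (1854, 350 and 493), chr11:62145001-62240000 (1498, 329 and 524), chr10:62710001-62795000 (1404, 295 and 476) and chr10:88195001-88285000 (1394, 293 and 467). The Upstate-type level was 5.88 to 8.83 times the median in these 5 regions and that of the lots 0.939 to 1.12 times. Each region was at least 85 kb wide, and the low levels of the lots in it follow from the choice of windows. As to mappability, 99.5% of the windows of this set had tags of some library in at least 80% of their 250-bp bins, compared with 92.7% of all windows.

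Of the 4850 windows enriched with lot 58206, 796 had both other libraries below 1.5 times their medians, and these were narrow. Windows called enriched with an antibody or lot alone, here and below, are those with the other libraries below that limit. The 796 windows were sought after the data had been seen. Their median levels were 0.95 with the Upstate-type antibody, 3.35 in lot 58206 and 1.28 in lot 638466. In the *T* = 6d library of lot 58206, which did not choose them, the median was 5.75 times and 771 (96.9%) were enriched, compared with 2.44% of all windows. At that time 98.5% were called higher with lot 58206 than with either other antibody, against 2.72% of all windows. Among all 4850 windows enriched with lot 58206, these shares were 81.4% and 72.85%. The 796 windows formed 786 runs, of which 776 were single windows. The largest were chr11:68850001-68860000 (given above), chr19:12080001-12090000 (16, 145 and 64 tags), chr13:63665001-63675000 (18, 140 and 71), chr6:120305001-120315000 (23, 136 and 58) and chr10:80595001-80605000.

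Centred on the highest stretch of the lot 58206 *T* = 6d library in each window, the lot 58206 signal at *T* = 0 averaged 9.35 times its median at the centre, 3.52 and 3.69 at 1 kb to either side and 1.28 at 5 kb. The Upstate-type signal had the opposite shape. It was 0.627 times its median over the central 1 kb, and 2.54 on average over the flanks from 2 to 10 kb (median 1.44), where lot 58206 had a mean of 1.38 and lot 638466 of 1.26. Flanks at the same distance from the middle of all windows had an Upstate-type mean of 1.42 and a median of 0.938. Lot 638466 rose to 1.78 at the centre itself. In 386 of the 796 windows (48.5%) at least 1 flank was at 3 times the Upstate-type median or more, compared with 12.1% of all windows. In 260 (32.7%) 1 flank was at that level while the other was below 1.5 times, compared with 3.37% of all windows. In 32 (4.02%) both flanks were at that level, which is near the 4.98% of all windows. An Upstate-type enriched window lay within 10 kb of 58.4% of these windows, compared with 16.3% of all windows. Among all 4850 windows enriched with lot 58206, some of which were enriched with the Upstate-type antibody too, the share was higher, at 70.2%. The low Upstate-type level at the centre follows from the choice of windows, whereas the flanks outside the window were not used.

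**Figure D4:**
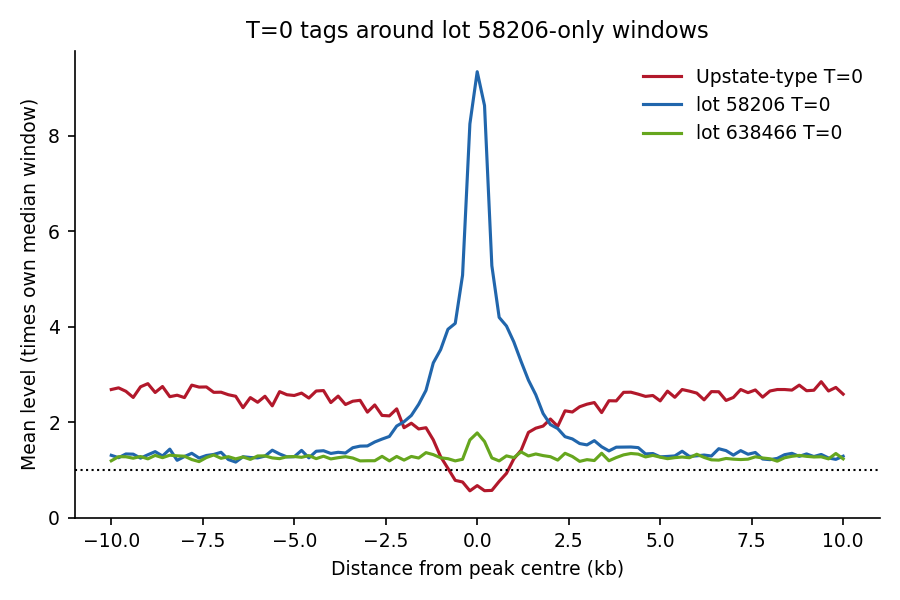
Mean level of the 3 *T* = 0 libraries (y axis, times their own median window) by distance from the peak centre (x axis, kb). The 796 windows shown were enriched with lot 58206 while both other libraries were below 1.5 times their medians. Lot 58206 peaks at 9.35 and returns to 1.28 by 5 kb, the Upstate-type antibody dips to 0.675 at the centre between flanks of about 2.5, and lot 638466 stays low with 1.78 at the centre.

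No window was enriched with both lots and below 1.5 times the Upstate-type median, and none was when the limit for the Upstate-type antibody was raised to 2 times. With enrichment set at 2 times the median there were 737 such windows, and with 2-kb windows 88. Nor was any window enriched with lot 638466 while both other libraries were below 1.5 times their medians. Of all windows enriched with lot 638466, 93.5% were enriched with the Upstate-type antibody as well.

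All 3 antibodies were enriched in 430 windows, with median levels of 8.7, 4.44 and 3.68 times the medians. These windows differed from the Upstate-type set in their later levels. With the Upstate-type antibody the median was 6.39, 3.4 and 2.8 after 2, 4 and 6 days, and the lots stood at 1.31 and 1.32 after 6 days. Between the Upstate-type libraries at *T* = 2d and *T* = 6d, neither of which chose the windows, 252 of the 430 (58.6%) were called lower at *T* = 6d by Fisher's exact test, against 2.51% of all windows. In the Upstate-type set 3184 (12.9%) were called lower. Higher calls at *T* = 6d were 16 (3.72%) in the shared windows and 482 (1.96%) in the Upstate-type set, against 1.99% of all windows. Both sets were chosen for a high level at *T* = 0, and how much of the later decline follows from that was not tested.

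**Figure D5:**
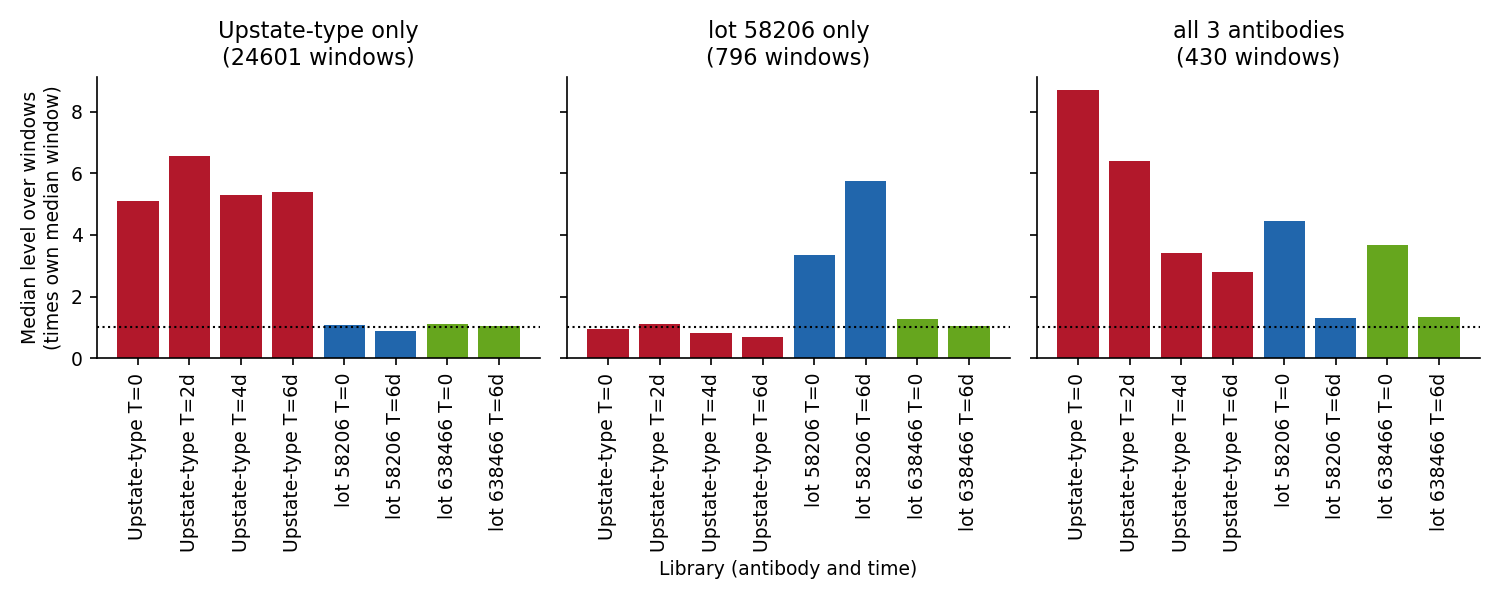
Median level (y axis, times the median window of each library) in all 8 libraries (x axis) for the windows enriched with the Upstate-type antibody only, with lot 58206 only and with all 3 antibodies. Only means that the other *T* = 0 libraries were below 1.5 times their medians. Each bar is 1 library and the dotted line marks the median window. The Upstate-type bars stay at 5.1 to 6.56 in the first panel and go from 8.7 to 2.8 in the third.

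The share of enriched windows varied between chromosomes in a similar order for the Upstate-type antibody and lot 58206. With the Upstate-type antibody it ranged from 6.28% on chromosome 3 to 13.6% on chromosome 11. With lot 58206 chromosomes 3 and 11 were also the extremes, at 0.643% and 1.77%. Across the 19 chromosomes, which differ in size and are not replicates, the share went with the GC content of the chromosome in GRCm38 with r = 0.904 for the Upstate-type antibody (0.872 without chromosome 11), 0.831 for lot 58206 (0.762) and 0.381 for lot 638466 (0.203). With the number of protein-coding genes per Mb, r was 0.759, 0.713 and 0.235. The part of base composition in these values was not tested.

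Mouse endogenous retroviruses occur in many near-identical copies in which short reads cannot be placed uniquely, so their chromatin is seen mainly in the flanks. The files held 6241 stretches of 4 to 9 kb with no tag midpoint in any of the 8 libraries. The sequence in them was not identified here. Within 1 kb of their 12482 edges, the tag density was 1.20 times that at 20 to 25 kb with the Upstate-type antibody, 1.11 times in lot 58206 and 1.01 times in lot 638466. From 1 to 2 kb the ratios were 1.16, 1.10 and 1.07, and from 5 to 10 kb they were 0.962, 0.993 and 0.994. In the later libraries the ratio within 1 kb was 0.999 with the Upstate-type antibody after 2 days, and 0.832 and 0.792 with the lots after 6 days. The excess beside the gaps was thus largest with the Upstate-type antibody at *T* = 0 and no ratio within 1 kb exceeded 1 in these later libraries.

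Tags were also counted at *H19*, *Olfr901*, *Cdh3* and a control region, whose limits were taken from a browser view and are good to about a kb. At *H19*, an imprinted gene for a non-coding RNA (chr7:149764001-149770000), there were 53 tags (95% Poisson interval 39.7 to 69.3), 70 (54.6 to 88.4) and 113 (93.1 to 136) in the order Upstate-type, lot 58206 and lot 638466. These were 1.28, 1.37 and 1.54 TPM per kb, and no pair passed the test (Fisher's exact test, smallest *P* = 0.294). At *Olfr901*, an olfactory receptor gene (chr9:38216001-38236000), there were 181, 161 and 146 tags, or 1.31, 0.947 and 0.599 TPM per kb. The Upstate-type antibody exceeded lot 638466 by 2.20-fold (Fisher's exact test, *P* = 1.68e-12) and lot 58206 exceeded lot 638466 by 1.58-fold (exact *P* = 7.48e-05), while the 1.39-fold difference between the Upstate-type antibody and lot 58206 was under the fold limit (exact *P* = 0.00273). *Olfr901* was thus the only one of the 3 genes at which the difference between the lots passed the test.

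At *Cdh3*, which encodes P-cadherin (chr8:108962001-109031000), there were 247, 334 and 491 tags, or 0.520, 0.569 and 0.584 TPM per kb, with a smallest exact *P* of 0.145 among the pairs. At the control region (chr4:3015001-3020000) there were 90, 77 and 91 tags, or 2.61, 1.81 and 1.49 TPM per kb, and the Upstate-type antibody exceeded lot 638466 by 1.75-fold (Fisher's exact test, *P* = 0.000189). Relative to their own medians the 3 libraries stood there at 9, 4.53 and 3.64 times. At *H19* these levels were 4.42, 3.43 and 3.77 times, and at *Cdh3* 1.79, 1.42 and 1.42 times. Under the background scaling the Upstate-type antibody also exceeded lot 58206 at *Olfr901* (2.02-fold, exact *P* = 1.15e-10) and at the control region (2.11-fold, exact *P* = 2.15e-06). At *Cdh3* that scaling put the Upstate-type antibody 1.33-fold above lot 58206 (exact *P* = 0.000722) and 1.31-fold above lot 638466 (exact *P* = 0.000628), both under the fold limit, where the first scale had put it below both lots.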

How the data were processed

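H3K9me3 ChIP-seq was measured in *Setdb1* conditional ES cells, and samples were grouped by the antibody and time point in the labels, with 1 library in each group. The authors mapped tags uniquely to mm9 (the build in the submitters' processing notes), made the tag numbers equal within each antibody and extended tags to 300 bp. The deposited files give the start and end position of each tag and no other values (unit: genomic position). The aligner is not given in the sources used here. The files are per sample, and 0 columns of other samples were set aside.

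Tags were placed by their midpoint in 5-kb windows of chromosomes 1 to 19 with Python 3.11.15, numpy 2.4.6 and pandas 2.3.3, and scaled to 1000000 deposited tags (TPM). Windows were called enriched at 3 times the median of their library and near background below 1.5 times. Libraries were compared by Fisher's exact test (scipy 1.17.1, *P* below 0.01, over 1.5-fold) and by limma 3.58.1 in R 4.3.3 (lmFit, eBayes with trend, Benjamini-Hochberg adjusted *P* below 0.05, over 1.5-fold) on log2(TPM + 0.5) over windows with at least 20 pooled *T* = 0 tags. Intervals are exact binomial or Poisson intervals at 95% and cover counting error only. The interval of the share of windows in runs takes windows as independent and is too narrow. Both tests were checked on simulated data. There the limma fit made more calls in unchanged windows than its adjusted *P* allows when few windows differed, so no direction is read from its counts. Figures were drawn with matplotlib 3.10.9.

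The comparison, the window sets and the tests were chosen with earlier results of these data known. Regions were named by a rule: the browser loci, the 3 richest windows of each library, the 3 regions of at least 2 windows with the largest ratio for each pair and direction, the widest run of each library and the 5 largest regions of each antibody-specific set. The reference at hand was GRCm38 and served only for the GC content and gene number of whole chromosomes, so genes and sequences at mm9 positions were not analysed here. Alternatives were a pseudocount of 2, no filter, 2-kb and 10-kb windows, enrichment at 2 and 5 times the median, thinning, well-covered windows, an upper limit, another scaling, and *T* = 0 and *T* = 6d libraries fitted together.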

Additional observations from a re-analysis of the deposited data

Results flagged for a closer look

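Chromosome X was not part of the windows compared above and was looked at after the data had been seen. With the limit taken from chromosomes 1 to 19, 2.01% of its 30306 windows were enriched with the Upstate-type antibody, compared with 0.0561% for lot 58206 and 0.0165% for lot 638466. The median window of chromosome X stood at 0.4, 0.353 and 0.36 times the median of chromosomes 1 to 19 in the same order, so that a window there had to exceed its own background further to pass. The order of the antibodies was the same as on the other chromosomes. With the Upstate-type antibody alone 560 windows of chromosome X were enriched, and with lot 58206 alone 1 was. These values were flagged because they lie outside the main measurement.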

How the results depend on the processing

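With 1 library for each antibody and time point, no spread between replicates could be measured, and no paired analysis was possible because the groups share no replicate numbers beyond the first. Values are given in the order Upstate-type, lot 58206, lot 638466. Of 150 values recomputed, 80 kept within their interval or within 1.5 times, 68 moved further and 2 passed the test only under the alternative. The order of the 3 antibodies in the share of tags in enriched windows held under the 8 alternatives run for it, and Spearman's rank correlation was highest between the lots under the 5 alternatives run for it. The balance of higher and lower windows did turn, in 10-kb windows and, for limma, under the background scaling.

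With enrichment at 2 times the median, the share of tags was 45.7%, 10.7% and 4.13%, the share of windows in runs of 25 kb or more was 58.6%, 3.04% and 4.14%, and 40572 windows were enriched with the Upstate-type antibody alone and 737 with both lots alone. At 5 times these were 24.6%, 0.790% and 0.267%, then 46.1%, 7.45% and 37.1%, and 12755. In 2-kb windows they were 39.3%, 8.54% and 1.31%, then 29.8%, 0.595% and 3.35%, and 43627 and 88. In 10-kb windows they were 35.7%, 1.93% and 0.413%, then 71.3%, 5.48% and 21.9%, and 13018. Thinned libraries gave shares of tags of 4.82% and 0.714% for the lots, and 4 windows enriched with both lots alone. Well-covered windows gave 36.9%, 4.05% and 0.540%, windows below 20 times the median gave 35.9%, 3.75% and 0.402%, and chromosome X gave 17.2%, 0.619% and 0.259%.

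Spearman's rank correlation between the Upstate-type antibody and lot 58206, between it and lot 638466, and between the lots was 0.313, 0.364 and 0.492 in 2-kb windows, 0.542, 0.552 and 0.760 in 10-kb windows, 0.431, 0.450 and 0.590 when thinned, and 0.359, 0.399 and 0.594 in well-covered windows. The Upstate-type antibody was higher than lots 58206 and 638466 in 59673 and 62484 windows of 2 kb (lower in 25747 and 24637) and in 20674 and 21967 of 10 kb (lower in 26429 and 36196). Under the background scaling it was higher in 52046 and 56574 and lower in 6365 and 4618, and limma gave 56183 higher and 16133 lower, compared with 32979 and 59014. Lot 58206 was higher than lot 638466 in 6055 windows of 10 kb, in 5972 when thinned and in 3613 at a Benjamini-Hochberg adjusted *P* below 0.05 in Fisher's exact test, where lot 638466 was higher in 282. The cause of these shifts was not tested. The median window held 10, 17 and 25 tags, so calls in single background windows rest on few tags in every library.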
